A study of Drosophila melanogaster with 54 samples.

Results

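The comparison covers the change from embryonic stage 13 to stage 15 of Drosophila melanogaster, the interval in which the organs laid down earlier begin to differentiate. Every embryo whose label gives one of these stages was taken, 8 of stage 13 and 8 of stage 15, which makes 16 of the 54 single embryos of the study. Each library came from 1 whole embryo that had been picked by hand and staged by its shape under a stereomicroscope. Total RNA was depleted of ribosomal RNA and sequenced in paired-end mode. The labels give no strain, genotype, sex or parents for any embryo, and no age in hours, so all 16 embryos are described by their stage alone. Embryos carry the letters A, B, C, D, F, G, H and I in both stages, and A, B, F and G of each stage are non-directional libraries, in which the strand of the transcript is lost, while the other 4 of each stage are directional. The same letter in both stages marks no shared parent or day in the labels, and nothing ties embryos to separate matings, so that the p-values reflect the spread among single embryos, which may be partly technical.

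At stage 13 the germ band has retracted and the epidermis is about to close over the back. By stage 15 dorsal closure is complete, the gut surrounds the yolk, the axon tracts of the nerve cord are in place, and the muscles are fused and attached to the epidermis. After a pulse of the steroid hormone ecdysone the epidermis and the tracheal tubes begin to lay down the cuticle, a layered matrix of chitin and protein, and neurons begin to make the proteins of the synapse. In whole embryos a lower level of a transcript can mean fewer cells that make it or less of it per cell, and these cannot be told apart here.

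Reads counted in genes numbered 4763446 to 7620647 per embryo at stage 13 and 4575463 to 9421310 at stage 15, and mitochondrial genes took 1.955% to 3.27% and 2.22% to 3.361% of them. The stages separated along the first principal component of the log counts, which held 77.4% of the variance, against 4% for the second. Stage 13 embryos lay between -67.58 and -15.1 on it and stage 15 embryos between 32.57 and 65.43. Stage 13 embryo A, at -15.1, lay nearest to stage 15, and its next neighbour, stage 13 embryo G, was at -35.43. Among stage 15 embryos D lay nearest to stage 13, and F and G, at 65.2 and 65.43, lay farthest from it. Levels are given below as CPM, the customary read count scaled to the total of reads in genes, after adjustment by the TMM factors (trimmed mean of M-values) of all 54 embryos, and they are not corrected for gene length, so that levels of different genes are not set against each other.

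A few embryos stood apart in sets of genes that included ones of 1 end of the body. A gene was counted as low in an embryo when it lay more than 4-fold below every other embryo of the stage, with a median of at least 5 CPM in the others and more than 1 CPM in each of them. By this measure 12 genes were low in stage 13 embryo F, 15 in stage 15 embryo C and 16 in stage 15 embryo F, and 0 to 4 in each of the other 13 embryos. The posterior Hox gene Abd-B had 4.6 CPM in stage 13 embryo F and 69.8 to 223.7 CPM in the other stage 13 embryos, and it had 1.84 CPM in stage 15 embryo C and 44.8 to 202.7 CPM in the rest. The hindgut gene byn had 0.821 CPM in stage 13 embryo F and 5.35 to 34.8 CPM in the others, and 0.69 CPM in stage 15 embryo C against 14.9 to 38.6 CPM. In stage 15 embryo F the genes that were low included the head gene tll, at 0.153 CPM against at least 4.15 CPM, and the prophenol oxidase genes PPO1, at 0.306 CPM against 22.6 to 276.1 CPM, and PPO2, at 3.22 CPM against 57.0 to 407.7 CPM, which mark the crystal cells of the blood. Genes of the hindgut, the crystal cells, the salivary gland and the head are therefore given below with these embryos named, and counts over all genes are also given without the 3 embryos.

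Between stage 13 and stage 15, 3007 of 8812 genes tested rose (34.1%) and 2859 fell (32.4%), 66.6% together, at an adjusted p under 0.05, by edgeR's quasi-likelihood test with Benjamini-Hochberg adjustment over all genes and with library type as a covariate. All adjusted p-values below come from this fit unless other embryos are named, and rose and fell are used only for genes that passed it. Changes of more than 2-fold, called by a test against that threshold in the same fit, numbered 1144 (13.0%), of which 946 were rises (10.7% of the genes tested) and 198 were falls (2.25%). Genes too low at stage 13 to be tested on that stage alone enter through their stage 15 level and can hardly do other than rise, so counts of rises in lists with untested members describe the genes tested only. Counts of rises and falls in the lists below are to be read beside the 34.1% and 32.4% of all genes tested. Rises made up 82.7% of the changes beyond 2-fold, while the median log2 change of all genes tested was -0.003. Large changes leaned further to one side, since 278 genes rose more than 8-fold and 7 fell more than 8-fold, and 56 rose more than 32-fold. The 8 embryos of one stage did not overlap those of the other at 2680 genes (30.4%), and these included 1055 of the 1144 genes that changed more than 2-fold. Without stage 13 embryo A the rises beyond 2-fold numbered 1079 and the falls 253, and without the 3 embryos low in end genes they numbered 890 and 164.

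Genes singled out by size were taken from those that changed more than 2-fold, had a mean of at least 10 CPM in the higher stage, did not overlap between stages and passed in each library type alone. The lack of overlap in these genes follows from that choice and adds no further evidence. Among the largest rises of named genes by this measure were Osi6, Mhc and ImpE2. Osi6, of the Osiris family of insect membrane proteins made in cuticle-secreting epithelia, lies on chromosome arm 3R, bases 6234708 to 6237181 of the dm6 assembly, and ranged from 0.498 to 2.58 CPM at stage 13 (median 1.5) and from 147.6 to 1562 CPM at stage 15 (median 442). Every stage 15 embryo lay above every stage 13 embryo by a wide margin, and the log2 change was 8.70 ± 0.50 (SE; edgeR adjusted p = 1.27e-09). Mhc, the muscle myosin heavy chain gene on arm 2L, bases 16766566 to 16788766, had 1.81 to 49.2 CPM in the stage 13 embryos, with a median of 3.9, and 800.8 to 2587.5 CPM in the stage 15 embryos, with a median of 1566. Stage 13 embryo A held the highest stage 13 level of Mhc and still lay far below the lowest stage 15 embryo, D, and the log2 change was 7.53 ± 0.54 (SE; edgeR adjusted p = 9.09e-09). ImpE2, an ecdysone-inducible gene found in imaginal discs, lies on arm 3L, bases 3510974 to 3512681 and ranged from 6.45 to 100.1 CPM at stage 13 (median 11.6) and from 852.2 to 2613.4 CPM at stage 15 (median 1486.1). The groups again did not overlap, embryo A was again the highest of stage 13, and the log2 change was 5.99 ± 0.49 (SE; edgeR adjusted p = 2.95e-08). Among the genes that met these limits the 15 with a name and the largest log2 rise were Osi6, Osi15 (log2 change 7.62), Osi7 (7.59), Mhc, ect (6.59), GluRIIA (6.29), the sulfotransferase gene St1 (6.07), ImpE2, dyl (5.95), the calponin-family muscle gene Mp20 (5.86), the extended synaptotagmin gene Esyt2 (5.85), ImpL1 (5.63), Cyp304a1 (5.58), the paramyosin gene Prm (5.57) and the linear ubiquitin ligase gene LUBEL (5.56). Without stage 13 embryo A the log2 changes were 8.45 for Mhc, 7.31 for ect, 6.89 for GluRIIA, 6.79 for St1, 6.60 for ImpE2, 6.99 for Esyt2, 6.32 for ImpL1 and 6.21 for LUBEL, each more than 1.5 times the fold with all embryos. For Mp20, 25 of the 28 stage 13 reads came from embryo A, and without that embryo the log2 change was 8.52. The size of its fold and its rank thus depend on embryo A, with which the rise was smaller. Under the same limits, but with only a number for a name, CG30413 (log2 change 7.69), CG6118 (7.35) and CG42331 (7.0) rose most.

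The largest falls are given next. The largest under the same limits was sisA, an X-linked element of the sex-determination signal, on arm X, bases 11321579 to 11322357, which stood at 3.41, 18.1 and 42.9 CPM in the lowest, median and highest stage 13 embryo, and at 0, 0.233 and 0.93 CPM at stage 15. The groups did not overlap, as these limits require, the spread at stage 13 was wide, and the log2 change was -5.96 ± 0.62 (SE; edgeR adjusted p = 3.39e-07). The next under these limits were Nek2, which encodes a mitotic kinase (log2 change -2.94), shd (-2.92), the inositol phosphate synthase gene Inos (-2.82), the transporter gene MFS12 (-2.67), link (-2.54), E(spl)mdelta-HLH (-2.50), tld, which encodes a protease that frees BMP ligands (-2.45), sing (-2.41), MFS1 (-2.34), E(spl)mgamma-HLH (-2.23), Cyt-b5-r (-2.11), Septin5 (-1.99), msb1l (-1.97) and stg (-1.94). Of genes with only a number that met the limits, CG34224 (log2 change -2.84), CG2233 (-2.76) and CG42762 (-2.66) fell most.

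**Figure D1:**
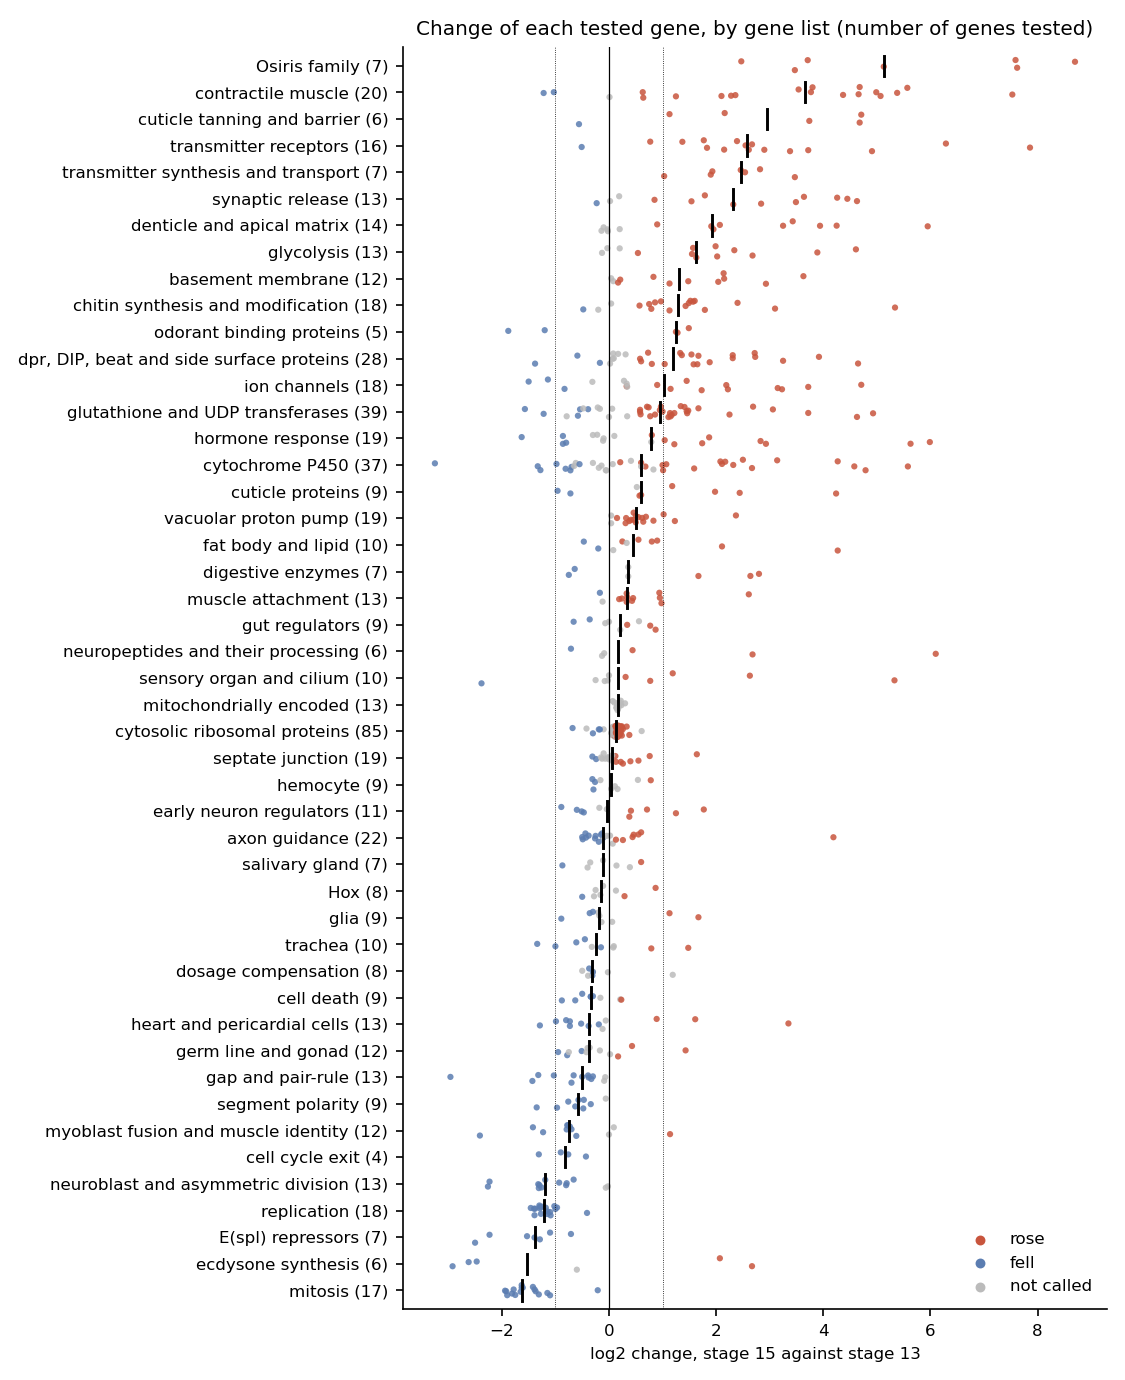
Log2 change from stage 13 to stage 15 of each tested gene, by gene list; each point is 1 gene, red where it rose, blue where it fell and grey where it passed in neither direction, and the black bar is the median of the list. Lists with at least 4 tested genes are shown, ordered by their median, from the Osiris family at 5.13 down to the mitosis list at -1.63, and the dotted lines mark 2-fold. Medians cover only genes that passed the filter on low counts, as 7 of 23 Osiris genes did, so that their order depends on it.

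Genes of cuticle building, which the epidermis and the tracheal tubes use, rose. Of 23 Osiris genes 7 passed the filter on low counts, and all of those 7 rose more than 2-fold; the other 16 were too low to test, and a gene that passes only through its stage 15 level can hardly do other than rise, so that this count is a description only. The summed level of all 23 ran from 6.41 to 29.2 CPM at stage 13 (median 12.2) and 399.7 to 3670.4 CPM at stage 15 (median 1174.9). Apart from Osi6, Osi15 and Osi7 the log2 changes were 5.13 for Osi2, 3.71 for Osi12, 3.47 for Osi17 and 2.47 for Osi24. In the chitin list 15 of 18 tested genes rose, 7 of them more than 2-fold, and 1 fell. Gasp, which encodes a chitin-binding protein of the tracheal and epidermal cuticle, ranged from 1.48 to 39.3 CPM at stage 13 (median 4) and from 262.2 to 570.5 CPM at stage 15 (median 405.2). There was no overlap between the stages, with embryo A highest at stage 13 and D lowest at stage 15, and the log2 change was 5.34 ± 0.48 (SE; edgeR adjusted p = 7.67e-08), or 5.97 without embryo A. The chitin-binding protein genes obst-B and obst-A rose with log2 changes of 3.10 and 1.79, and the chitinase genes Cht5 and Cht10 with changes of 2.40 and 1.52.

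Enzymes that make and trim the chitin polymer were already read at stage 13. kkv, the chitin synthase gene, had 111.8 to 205.1 CPM in the stage 13 embryos, with a median of 139.6, and 191 to 364.5 CPM in the stage 15 embryos, with a median of 244.6. The highest stage 13 embryo, A, overlapped the lowest stage 15 embryo, D, and the log2 change was 0.79 ± 0.12 (SE; edgeR adjusted p = 2.26e-05). The chitin deacetylase genes serp and verm, which set the shape of tracheal tubes, rose with log2 changes of 1.49 and 0.86, and exp and reb, which are needed for chitin deposition, with changes of 1.60 and 1.57. Cht6 was the member that fell, with a log2 change of -0.48, and Cht2 and rtv stood at 0.04 and -0.20 without passing the test.

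Genes of the apical matrix that sculpts denticles and hairs rose as well, 9 of 14 tested, 8 of them more than 2-fold, and none of the 14 fell. The zona pellucida (ZP) domain gene dyl ranged from 0.799 to 2.65 CPM at stage 13 (median 1.3) and from 33.4 to 206 CPM at stage 15 (median 77.2). The lowest stage 15 embryo exceeded the highest stage 13 embryo many times over, and the log2 change was 5.95 ± 0.36 (SE; edgeR adjusted p = 1.53e-09). Other ZP domain genes that rose were mey (log2 change 4.25), m (3.43), cyr (3.25), tyn (2.07), neo (1.95) and pio (0.90). sha, needed for the actin bundles of denticles, had 11.6 to 189 CPM in the stage 13 embryos, with a median of 27.8, and 657.7 to 946.9 CPM in the stage 15 embryos, with a median of 836. Stage 13 embryo A was the highest of its stage, the groups did not overlap, and the log2 change was 3.94 ± 0.45 (SE; edgeR adjusted p = 1.09e-06). ovo, whose product directs denticle formation, and dpy, which encodes a giant ZP domain protein, did not pass the test, at log2 changes of -0.10 and -0.02.

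Of the genes for tanning and for the epidermal barrier 5 of 6 tested rose. The tanning genes b, Ddc and y were too low to test, so that this count describes the genes tested only. The summed level of the list was 501.5 to 598.1 CPM at stage 13 (median 528.1) and 438.3 to 560.4 CPM at stage 15 (median 504.8). Hn, which encodes phenylalanine hydroxylase, ranged from 0.164 to 8.27 CPM at stage 13 (median 1.05) and from 29.9 to 58 CPM at stage 15 (median 46.3). Embryo A alone of stage 13 exceeded 2 CPM, all stage 15 embryos lay higher, and the log2 change was 4.68 ± 0.40 (SE; edgeR adjusted p = 4.21e-08), or 5.65 without embryo A. The tyrosine hydroxylase gene ple rose with a log2 change of 4.71, the GTP cyclohydrolase gene Pu with a change of 2.16, and t and e, which act on dopamine conjugates, with changes of 3.74 and 1.13. grh, which encodes a transcription factor of the epidermal barrier, fell with a log2 change of -0.56. The structural cuticle proteins remained low, since 9 of 124 listed genes could be tested and the summed level of all 124 was 36.8 to 73.5 CPM at stage 13 (median 43.8) and 82.7 to 113 CPM at stage 15 (median 95.4). Of the 9 tested, 6 rose, among them Cpr11A (log2 change 2.44) and Cpr47Ef (4.24), and 2 passed as lower, TwdlZ and Twdlalpha, of whose directional reads 0% and 1.63% lay on their own strand.

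**Figure D2:**
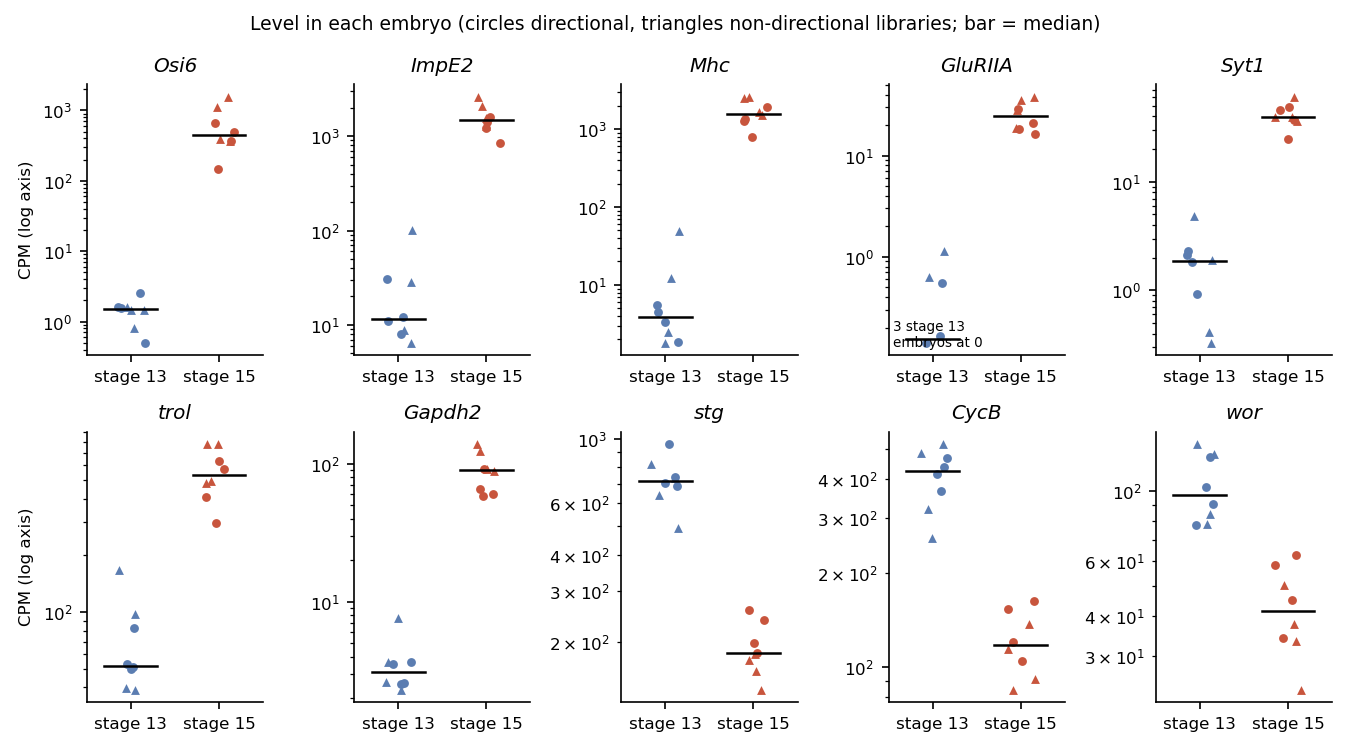
CPM in each of the 16 embryos (log axes) for 10 genes of the lists; circles are directional and triangles non-directional libraries, and the bar is the median of the stage. The 8 embryos of stage 13 (blue) and the 8 of stage 15 (red) do not overlap in any panel, and embryos without a read are noted in the panel. The genes were picked for display, and list genes whose stages overlap, such as kkv, are not shown. Of all genes tested 30.4% did not overlap.

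The hormone genes changed in both directions. In the list of hormone response genes 9 of 19 tested rose, 6 of them more than 2-fold, and 4 fell. Of all genes tested 34.1% rose, 10.7% rose more than 2-fold and 32.4% fell. Besides ImpE2, the ecdysone-inducible genes ImpL1 and ImpE1 rose with log2 changes of 5.63 and 2.93, and the nuclear receptor genes Eip78C, Hr3 and Hr4, which act after the hormone pulse, with changes of 1.87, 1.74 and 1.04. The juvenile hormone receptor gene gce rose with a log2 change of 2.83, though 46.3% of its reads were counted when strand was ignored, because of an overlapping gene. EcR and usp, which together encode the ecdysone receptor, did not pass the test, at log2 changes of -0.22 and 0.10, though EcR passed as lower without stage 13 embryo A (-0.28, adjusted p 0.0112) or any 1 of 5 other embryos. Eip74EF fell with a log2 change of -1.63, Hr39 with a change of -0.86 and Eip93F passed as lower at -0.86. Stage 15 embryo I held the highest stage 15 level of both Eip74EF, at 21.6 CPM, and Eip93F. The call of Eip93F (adjusted p 0.0445) was lost in 13 of the 16 fits that left out 1 embryo, with adjusted p from 0.0516 to 0.0892, and also with all 54 embryos (0.0548), without the library term (0.078), without the filter (0.0585) and in the directional libraries alone (0.782).

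Among the genes of ecdysone synthesis and breakdown the last step of synthesis and the inactivating enzyme moved apart. shd, which encodes the enzyme that turns ecdysone into the active hormone, ranged from 14.4 to 31 CPM at stage 13 (median 23.4) and from 1.49 to 4.49 CPM at stage 15 (median 3.07). No stage 15 embryo reached the lowest stage 13 embryo, and the log2 change was -2.92 ± 0.23 (SE; edgeR adjusted p = 1.61e-08). Cyp18a1, whose enzyme inactivates the hormone, had 0.932 to 42.3 CPM in the stage 13 embryos, with a median of 5.48, and 52.2 to 74.3 CPM in the stage 15 embryos, with a median of 64.3. Embryo A, at the top of stage 13, lay below the lowest stage 15 embryo, and the log2 change was 2.67 ± 0.48 (SE; edgeR adjusted p = 0.000122), or 3.34 without embryo A. The synthesis genes dib and sad fell with log2 changes of -2.62 and -2.47, with 58.9% and 62.7% of their directional reads on their own strand, so that part of their count comes from the opposite strand, and phtm rose with a change of 2.07.

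Genes of the trachea and of septate junctions changed in both directions. Of 10 tracheal genes 2 rose and 5 fell, against 34.1% and 32.4% of all genes tested, and 6 did not overlap between stages, against 30.4%. The median log2 change, over members that went both ways, was -0.24. btl, the FGF receptor gene of the tracheal cells, ranged from 81 to 120.6 CPM at stage 13 (median 104.2) and from 32.2 to 50.1 CPM at stage 15 (median 41.5). No embryo of one stage lay within the range of the other, and the log2 change was -1.34 ± 0.10 (SE; edgeR adjusted p = 8.76e-09). Its ligand gene bnl fell with a log2 change of -0.45, pnt, which encodes an ETS factor of the same pathway, with a change of -0.61, and rib, needed for tube growth, with a change of -1.0. bs, which encodes the serum response factor of tracheal terminal cells, rose with a log2 change of 1.48, while the tracheal selector gene trh did not pass the test, at 0.08. Of 19 genes of the septate junction, the seal between epithelial cells, 8 rose and 2 fell, against the same 34.1% and 32.4%, with a median of 0.05. The rises were led by bark (log2 change 1.64), cora (0.76) and the sodium pump gene Atpalpha (0.55), and 9 members passed in neither direction. In the directional libraries alone 4 rose, and without stage 15 embryo A or D 4 fell.

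The contractile apparatus of the muscle rose with a median log2 change of 3.66, second among the lists to the Osiris family. Both medians cover tested genes only, so that this order depends on the filter on low counts. Of 20 tested genes (24 listed) 17 rose, 15 of them more than 2-fold, and 2 fell, and the summed level ran from 2772.3 to 4017.3 CPM at stage 13 (median 2923.9) and 6489.4 to 14287.4 CPM at stage 15 (median 9521.4). Mlc2, the regulatory myosin light chain gene, had 12 to 69.4 CPM in the stage 13 embryos, with a median of 17.3, and 353.1 to 736.9 CPM in the stage 15 embryos, with a median of 509.8. Stage 13 embryo A was highest in its stage, all stage 15 embryos lay above it, and the log2 change was 4.37 ± 0.29 (SE; edgeR adjusted p = 3.81e-09). The troponin genes up (troponin T), wupA (troponin I) and TpnC73F (troponin C) rose with log2 changes of 5.38, 4.99 and 4.68, the alkali light chain gene Mlc1 with a change of 5.07, the tropomyosin gene Tm2 with a change of 3.80 and the projectin gene bt with a change of 3.54. Without stage 13 embryo A the log2 changes of up, wupA and Mlc1 were 6.07, 5.67 and 5.81. The titin-like gene sls, already read at a median of 1186.9 CPM at stage 13 and 1859.8 CPM at stage 15, rose with a log2 change of 0.63.

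The actin genes of this list went separate ways. Act57B, the main muscle actin gene of the embryo and larva, ranged from 761.9 to 909.3 CPM at stage 13 (median 823.7) and from 1424.8 to 2696.5 CPM at stage 15 (median 1857.5). The stages were fully apart, and the log2 change was 1.25 ± 0.11 (SE; edgeR adjusted p = 6.45e-08). Act87E, another muscle actin gene, had 131.9 to 223.2 CPM in the stage 13 embryos, with a median of 185.9, and 67.2 to 89 CPM in the stage 15 embryos, with a median of 75.6. Here every stage 15 embryo lay below every stage 13 embryo, and the log2 change was -1.22 ± 0.10 (SE; edgeR adjusted p = 2.39e-08). Genes of near-identical sequence can give reads that fit more than 1 gene, and the entry for such reads was 0 in every embryo. How those reads were treated cannot be read from the counts, so values of single actin genes are uncertain to that extent.

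Genes of myoblast fusion and muscle identity fell, 9 of 12 tested, 3 of them more than 2-fold, and 1 rose, with a median log2 change of -0.75. lmd, which encodes a regulator of fusion-competent myoblasts, ranged from 118.8 to 190.7 CPM at stage 13 (median 146.4) and from 42 to 65.2 CPM at stage 15 (median 56.6). The groups did not overlap, and the log2 change was -1.42 ± 0.09 (SE; edgeR adjusted p = 4.15e-09). The adhesion genes sns and rst fell with log2 changes of -0.76 and -0.73, the fusion genes mbc, blow, rols and Vrp1 with changes of -0.79, -0.78, -0.61 and -1.23, and Mef2, which encodes the muscle transcription factor, with a change of -0.70. sing also fell (log2 change -2.41), though 48.4% of its reads were counted when strand was ignored, because of an overlapping gene. twi and kirre did not pass.

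Genes of muscle attachment rose, 11 of 13 tested, by a median of 0.34. Msp300, a giant nesprin that anchors muscle nuclei, rose with a log2 change of 2.61, the integrin subunit genes if and mys with changes of 0.98 and 0.19, the talin gene rhea with a change of 0.45, and sr and slow, genes of the tendon cells, with changes of 0.94 and 0.95. mew, which encodes another integrin subunit, fell with a log2 change of -0.17, with an adjusted p of 0.0457 that exceeded 0.05 when any 1 of 9 embryos was left out. In the list of heart and pericardial genes 8 of 13 fell, 5 in the directional libraries alone, and 3 rose. Those that rose were prc, a collagen-like protein gene of the heart (log2 change 3.35), H15 (1.61) and Hand (0.89), and those that fell included the dorsal mesoderm and cardiac regulators pnr (-1.29), Doc2 (-0.99) and tin (-0.73).

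Receptor subunits of the muscle for glutamate, the transmitter of the motor neuron, also rose. GluRIIA ranged from 0 to 1.14 CPM at stage 13 (median 0.153) and from 16.3 to 38.1 CPM at stage 15 (median 24.7). It was listed without a read in some stage 13 embryos, every stage 15 embryo lay far above, and the log2 change was 6.29 ± 0.38 (SE; edgeR adjusted p = 1.58e-09). The subunit genes GluRIIB and GluRIID rose with log2 changes of 2.90 and 3.38, and GluRIIE with a change of 3.72 with 67.4% of directional reads on its own strand. GluRIIC had 1 read over all stage 13 embryos and 9.22 ± 4.84 CPM (mean ± SD, n = 8) at stage 15.

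In the nervous system most of the tested genes of synaptic release rose and most of the tested genes of the neural precursors fell. Of 13 genes of synaptic release 10 rose, 8 of them more than 2-fold, with a median log2 change of 2.32. Syt1, the calcium sensor of vesicle release, ranged from 0.328 to 4.87 CPM at stage 13 (median 1.88) and from 24.9 to 60.6 CPM at stage 15 (median 39.1). The highest stage 13 embryo, A, lay well under the lowest stage 15 embryo, D, and the log2 change was 4.45 ± 0.31 (SE; edgeR adjusted p = 6.66e-09). Syn (synapsin), cac (the presynaptic calcium channel), nSyb (synaptobrevin), brp (the active zone scaffold) and Rab3 rose with log2 changes of 4.63, 4.26, 3.64, 3.49 and 2.84. Syx1A (syntaxin) did not pass, at 0.02, and Csp, which encodes a vesicle chaperone, fell with a log2 change of -0.23 but passed in neither library type alone.

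All 7 tested genes of transmitter synthesis and transport rose, 6 of them more than 2-fold; the other 4 of 11 listed were too low to test, and members such as ChAT, with 72 reads over all stage 13 embryos, were low at stage 13, so that this count is a description only. The summed level of all 11 was 23.6 to 88.4 CPM at stage 13 (median 29.7) and 171.5 to 291.1 CPM at stage 15 (median 226.8). VGlut, the vesicular glutamate transporter gene of motor neurons, had 0.932 to 5.52 CPM in the stage 13 embryos, with a median of 2.09, and 19.3 to 38.4 CPM in the stage 15 embryos, with a median of 30.1. There was no overlap between the stages, and the log2 change was 3.47 ± 0.26 (SE; edgeR adjusted p = 1.11e-08). The cholinergic genes ChAT and VAChT rose with log2 changes of 2.54 and 2.46, the GABA genes Gad1 and VGAT with changes of 1.93 and 1.90, and the monoamine transporter gene Vmat with a change of 2.82. Of 16 tested transmitter receptor genes 15 rose and 1, nAChRbeta2, fell (log2 change -0.51). The other 6 of 22 listed were too low to test, and GluRIIC, GluRIIA and nAChRalpha2, with 1, 15 and 7 reads over all stage 13 embryos, could hardly do other than rise, so that this count too is a description only. The nicotinic subunit genes nAChRalpha2, nAChRbeta1 and nAChRalpha1 rose with log2 changes of 4.91, 2.61 and 1.83, the chloride channel gene GluClalpha with a change of 2.67 and the NMDA-type subunit gene Nmdar2 with a change of 2.15. nAChRalpha3 was too low to test but had 11.0 CPM in stage 13 embryo A and at most 0.748 CPM in any other of the 16 embryos. nAChRbeta2 did not pass in the directional libraries alone, where its adjusted p was 0.102.

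Ion channel genes divided, with 11 of 18 higher and 3 lower. The potassium channel genes Shaw, SK, Shab, Shal and Sh rose with log2 changes of 3.72, 3.23, 3.15, 2.22 and 2.19, and qvr, which modulates Shaker channels, with a change of 4.71. The genes eag and Hk fell with log2 changes of -1.14 and -1.50, and NaCP60E, a sodium channel family member, with a change of -0.83. Of the directional reads of the sodium channel gene para 13.2% lay on its own strand, so no change is given for it. slo, the calcium-activated potassium channel gene, ranged from 0.553 to 55.1 CPM at stage 13 (median 49.2) and from 3.45 to 58.6 CPM at stage 15 (median 25.1). Its stage 13 embryos fell apart, with A, G and H below 2 CPM and the other 5 above 45 CPM, and the log2 change, -0.31 ± 0.67 (SE; edgeR adjusted p = 0.699), did not pass.

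Genes of the neural precursors fell, 11 of 13 tested and 0 rises, with a median of -1.19. wor, which encodes a Snail-family factor of the neuroblast, ranged from 78 to 140.9 CPM at stage 13 (median 96.9) and from 23.3 to 62.4 CPM at stage 15 (median 41.4). No stage 15 embryo reached the lowest stage 13 embryo, and the log2 change was -1.31 ± 0.19 (SE; edgeR adjusted p = 1.12e-05). ase, dpn and mira, which mark the neuroblast or its asymmetric division, fell with log2 changes of -1.19, -1.30 and -1.26, the temporal factor genes hb and cas with changes of -1.32 and -0.79, and the proneural genes sc and l(1)sc with changes of -2.26 and -2.23. For dpn, 27.2% of the reads were counted when strand was ignored. numb and nub did not pass, at log2 changes of -0.02 and -0.06. Of 11 early neuron genes 5 rose and 4 fell, against 34.1% and 32.4% of all genes tested. The microtubule-binding protein gene futsch and Appl rose with log2 changes of 1.77 and 1.25, and the regulators nerfin-1, pros and elav fell with changes of -0.89, -0.60 and -0.47.

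Axon guidance genes changed in both directions. Of 22 tested 7 rose and 11 fell, against 34.1% and 32.4% of all genes tested, and 5 passed as lower in the directional libraries alone. The median log2 change, over members that went both ways, was -0.11. robo3, a Slit receptor gene, had 1.6 to 18.3 CPM in the stage 13 embryos, with a median of 3.48, and 68.8 to 155.7 CPM in the stage 15 embryos, with a median of 114.3. No embryo of one stage lay within the range of the other, and the log2 change was 4.19 ± 0.34 (SE; edgeR adjusted p = 2.73e-08), while the receptor genes robo1 and robo2 fell with changes of -0.11 and -0.49 and the ligand gene sli did not pass (-0.04). Of the immunoglobulin surface proteins of the dpr, DIP, beat and side families, through which neurons recognise partners, 28 of 54 could be tested, and 19 rose and 3 fell. dpr10 rose with a log2 change of 3.92, and side-VI with a change of 3.25, or 3.91 without stage 13 embryo C, and DIP-alpha fell with a change of -1.38.

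Peptidergic, glial and sensory genes were looked at next. Of 30 neuropeptide genes and their processing enzymes 6 could be tested. Of these 3 passed as higher, Mip, dimm and ITP, 1 fell and 2 passed in neither direction. The summed level of all 30 was 251.1 to 318.3 CPM at stage 13 (median 306.9) and 273.1 to 335.5 CPM at stage 15 (median 297.6). Mip had 3 reads over all stage 13 embryos and 5.58 ± 2.76 CPM (mean ± SD, n = 8) at stage 15, and dimm, a regulator of peptidergic cells, rose with a log2 change of 2.68. Of 9 glial genes 2 rose and 3 fell, against 34.1% and 32.4% of all genes tested. Those that rose were the astrocyte gene alrm (log2 change 1.67) and zyd (1.13), and those that fell included the glial switch gene gcm (-0.89). The pan-glial gene repo did not pass (-0.14) except without stage 15 embryo C (log2 change -0.20, adjusted p 0.0211). Of 10 sensory organ genes tested (17 listed) 5 rose, against 34.1% of all genes tested, and 1 fell. The summed level of the list was 139.8 to 189 CPM at stage 13 (median 168.1) and 219.5 to 314.9 CPM at stage 15 (median 300.0), with no overlap. nompA, which encodes a ZP domain protein that ties sensory dendrites to the cuticle, rose with a log2 change of 5.33, or 6.36 without stage 13 embryo A, the channel gene pain with a change of 2.63, and unc, a gene of the sensory cilium, fell with a change of -2.38.

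**Figure D3:**
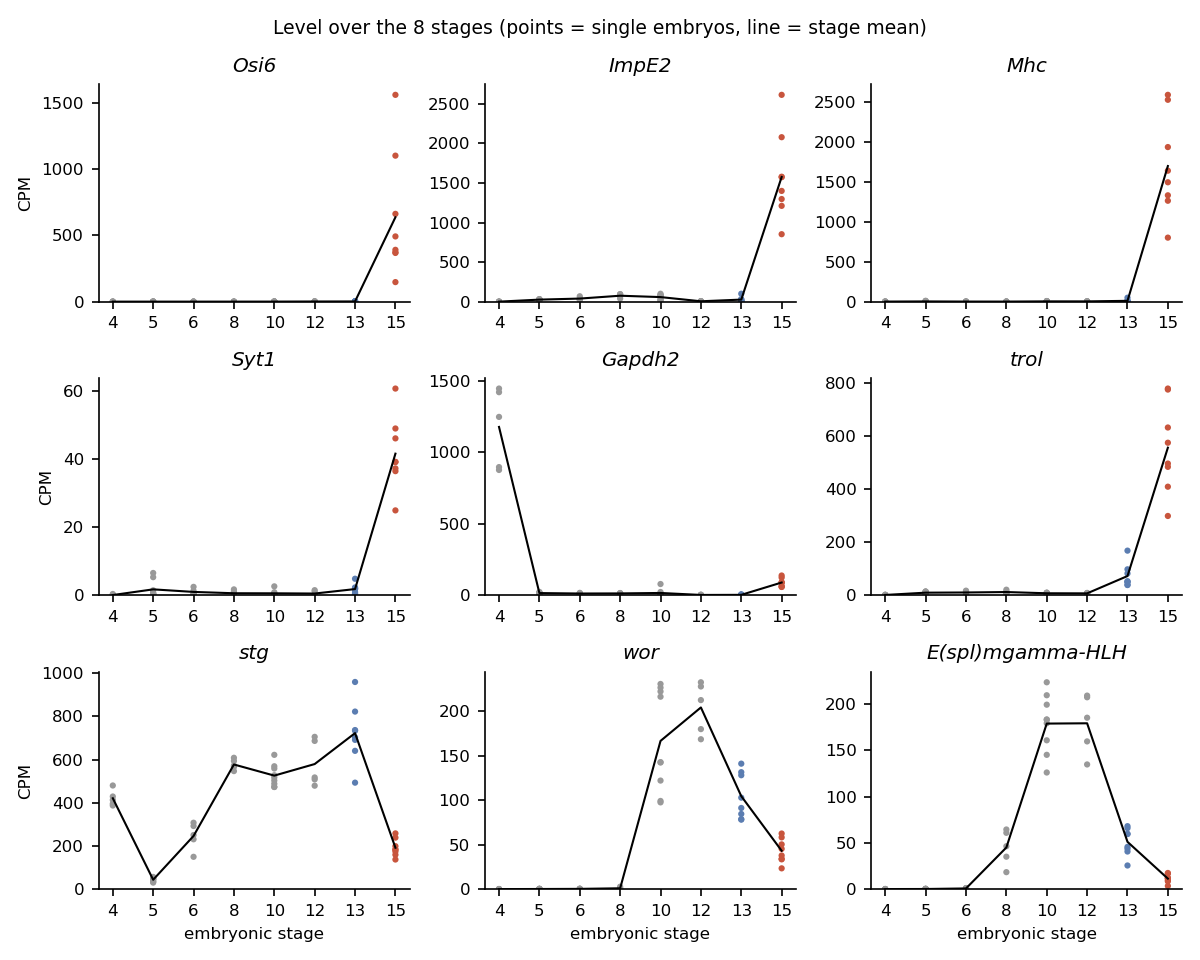
CPM of 9 genes in every embryo of the 8 stages, placed at equal distances on the horizontal axis; points are embryos and the line joins stage means. Osi6, ImpE2, Mhc, Syt1 and trol are highest at stage 15, Gapdh2 is highest at stage 4 and rises again at stage 15, and stg, wor and E(spl)mgamma-HLH are lower at stage 15 than at stage 13.

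Cell division genes fell as a block. All 18 tested genes of DNA replication and all 17 of mitosis fell, 4 and 12 of them more than 2-fold, with medians of -1.21 and -1.63. stg, which encodes the Cdc25 phosphatase that triggers mitosis in the embryo, lies on arm 3R, bases 29251826 to 29255800 and ranged from 493 to 959.4 CPM at stage 13 (median 718.5) and from 137 to 258 CPM at stage 15 (median 183.3). The groups were far apart, with stage 13 embryo A lowest of its stage, and the log2 change was -1.94 ± 0.11 (SE; edgeR adjusted p = 1.22e-09). CycB, CycA and CycB3, the mitotic cyclin genes, fell with log2 changes of -1.78, -1.42 and -1.75, and the kinase genes polo and aurB with changes of -1.92 and -1.65. In the replication list CycE fell with a log2 change of -1.30, the clamp gene PCNA with a change of -1.38, and the helicase subunit genes Mcm5 and Mcm3 with changes of -1.40 and -1.39. The summed level of the mitosis list ran from 1870.2 to 3811.5 CPM at stage 13 (median 2988.9) and 669.8 to 1304 CPM at stage 15 (median 930.5).

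Genes that end the cell cycle fell too, 4 of 4. dap, the cyclin-dependent kinase inhibitor gene, had 349.6 to 821.5 CPM in the stage 13 embryos, with a median of 681.7, and 224 to 324.4 CPM in the stage 15 embryos, with a median of 254.3. The stages were fully apart, and the log2 change was -1.31 ± 0.13 (SE; edgeR adjusted p = 2.55e-07), while fzr and rux fell with changes of -0.90 and -0.76. Of 9 cell death genes 6 fell and 1, skl, rose (log2 change 0.23), with an adjusted p of 0.0393 that exceeded 0.05 in 11 of the 16 fits that left out 1 embryo, up to 0.122 without stage 13 embryo H. The death inducer gene hid fell with a log2 change of -0.50 and the caspase genes Dcp-1 and Drice with changes of -0.88 and -0.63, and rpr, another inducer, did not pass (-0.16).

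Patterning genes of earlier stages were lower at stage 15. All 7 E(spl) repressor genes, the targets of Notch signalling in the embryo, fell, with a median of -1.39. E(spl)mgamma-HLH ranged from 25.5 to 68 CPM at stage 13 (median 52.5) and from 3.37 to 17.4 CPM at stage 15 (median 11.5). The groups did not overlap, embryo F was at once the highest of stage 13 and the lowest of stage 15, and the log2 change was -2.23 ± 0.23 (SE; edgeR adjusted p = 4.2e-07). Among 13 genes of the gap and pair-rule classes there were 11 falls and 0 rises, with ftz (log2 change -2.96), gt (-1.32) and kni (-0.66). tll fell with a log2 change of -1.43, with stage 15 embryo F at 0.153 CPM and stage 13 embryo F highest at 47.8 CPM. Of 9 segment polarity genes 8 fell, gsb with a log2 change of -1.35, en with a change of -0.97, wg with a change of -0.76 and ptc with a change of -0.63. Of the 8 Hox genes lab and Antp rose (log2 changes 0.87 and 0.29) and pb fell (-0.50, adjusted p 0.0465), a call lost in 8 of the 16 fits that left out 1 embryo and without the 3 embryos low in end genes (0.214), and Abd-B, low in the embryos named above, did not pass (-0.25).

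Genes of the basement membrane, the sheet of matrix under epithelia and around muscles and nerve cord, rose. Of 12 genes 10 rose, 6 of them more than 2-fold, and none of the 12 fell, with a median of 1.31. trol, the perlecan gene, ranged from 38.7 to 168.1 CPM at stage 13 (median 52.1) and from 298.4 to 777.3 CPM at stage 15 (median 534.5). Embryo A was highest at stage 13 and D lowest at stage 15, the groups did not overlap, and the log2 change was 2.93 ± 0.28 (SE; edgeR adjusted p = 1.66e-07). The collagen IV genes vkg and Col4a1 rose with log2 changes of 2.15 and 2.14, Tig, an integrin ligand, with a change of 2.04, Glt with a change of 3.63 and the nidogen gene Ndg with a change of 1.13. The laminin genes rose little, LanB1 with a log2 change of 0.17 and LanB2 with a change of 0.21, or did not pass, LanA at 0.04 and wb at 0.08.

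Blood cells make much of this matrix. Of 9 hemocyte genes tested Pxn, the matrix peroxidase gene, rose (log2 change 0.78), and srp, ush and drpr fell (-0.26, -0.29 and -0.31). PPO1 and PPO2 did not pass, at log2 changes of 0.54 and 0.16, and were nearly absent from stage 15 embryo F. Fat body and lipid genes rose in 6 of 10 tested cases. The lipid carrier gene apolpp had 5905.5 to 8048.7 CPM in the stage 13 embryos, with a median of 6371.6, and 7318.4 to 17882 CPM in the stage 15 embryos, with a median of 12353.1. The ranges overlapped a little, and the log2 change was 0.90 ± 0.13 (SE; edgeR adjusted p = 1.55e-05). In the edgeR fit of all 54 embryos apolpp did not pass (0.91, adjusted p 0.0603). Mtp, which loads lipid on that carrier, rose with a log2 change of 0.80, Apoltp with a change of 0.55 and Cyp4g1, an oenocyte enzyme gene, with a change of 4.27, and the lipase gene bmm fell with a change of -0.47.

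Gut and salivary gland regulators went in both directions. The endoderm factor gene GATAe and lab rose (log2 changes 0.77 and 0.87), as did drm (0.34), and fkh and hkb fell (-0.36 and -0.66), of 9 tested. byn, nearly absent from the embryos named above, did not pass. Of 46 digestive enzyme genes 7 could be tested, and 3 rose and 2 fell, against 34.1% and 32.4% of all genes tested. Those that rose were lambdaTry (log2 change 2.80), Mal-A3 (2.64) and Mal-A5 (1.67). The summed level of all 46 was 239.9 to 340.8 CPM at stage 13 (median 294.1) and 152.3 to 313.5 CPM at stage 15 (median 212.4). Of the vacuolar proton pump 17 of 19 tested subunit genes (32 listed) rose and 0 fell, with a median of 0.50; Vha100-4 rose with a log2 change of 2.37 and Vha68-2 with a change of 1.23. In the salivary list ps rose (log2 change 0.60) and eyg fell (-0.87), and the gland genes sage, PH4alphaSG1 and PH4alphaSG2, lowest in stage 15 embryo F, did not pass; without that embryo PH4alphaSG1 passed as higher (0.58, adjusted p 0.0269). In the directional libraries alone, which leave out that embryo, PH4alphaSG1 (log2 change 0.91, adjusted p 0.00561) and PH4alphaSG2 (0.57, adjusted p 0.0114) passed as higher and 3 genes of the list rose in all.

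The glycolysis genes rose together. Of 13 tested 10 rose, 9 of them more than 2-fold, and 0 fell, with a median of 1.63. Gapdh2, which encodes glyceraldehyde phosphate dehydrogenase, ranged from 2.29 to 7.63 CPM at stage 13 (median 3.07) and from 58.7 to 138.8 CPM at stage 15 (median 89.5). There was no overlap between the stages, with embryo A highest at stage 13, and the log2 change was 4.61 ± 0.20 (SE; edgeR adjusted p = 2.08e-10). The gene had been at 1178.2 ± 276.4 CPM (mean ± SD, n = 5) at stage 4 and at 2.9 ± 1.44 CPM (n = 5) at stage 12, so the rise brought back a small part of the early level. Tpi, Ldh (lactate dehydrogenase), Pfk and Eno rose with log2 changes of 3.89, 2.68, 2.02 and 1.55, while Hex-A and ERR, which encodes a nuclear receptor that drives this pathway, did not pass (-0.13 and -0.03).

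Detoxification families were mixed. Of 84 cytochrome P450 genes 37 were tested, and 18 rose and 8 fell, against 34.1% and 32.4% of all genes tested. The falls numbered 5 without stage 13 embryo B or G or stage 15 embryo B, and 2 in the directional libraries alone. Cyp4e1 and Cyp301a1 rose with log2 changes of 4.79 and 4.58. Cyp6a8 fell from a wide spread at stage 13, as it ranged from 57.3 to 676.8 CPM at stage 13 (median 299.5) and from 6.23 to 115.3 CPM at stage 15 (median 36.5). The groups overlapped, and the log2 change was -3.25 ± 0.65 (SE; edgeR adjusted p = 0.000305). Of 39 tested glutathione and UDP transferase genes (70 listed) 27 rose and 5 fell, led by GstO3 (log2 change 4.93, and 6.03 without stage 13 embryo A) among the rises and GstE3 (-1.57) among the falls. Of 51 odorant binding protein genes 5 were tested, and 3 rose and 2 fell. Obp99a had 757.3 to 1509.2 CPM in the stage 13 embryos, with a median of 1092.5, and 229.6 to 413.3 CPM in the stage 15 embryos, with a median of 306. The ranges did not overlap, and its log2 change was -1.88 ± 0.14 (SE; edgeR adjusted p = 1.19e-08). None of 14 antimicrobial peptide genes was high enough to test, and their summed level was 1.04 to 3.12 CPM at stage 13 (median 2.05) and 1.18 to 2.54 CPM at stage 15 (median 1.52).

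The germ line, the maternal supply and the general machinery were looked at as further lists. Of 12 germ line and gonad genes 3 rose and 3 fell, against 34.1% and 32.4% of all genes tested. The gonad gene tj (log2 change 1.43) was among the rises and aub (-0.78) among the falls, while 1 gene of the list rose in the directional libraries alone. Of 18 eggshell and yolk genes only the yolk protein gene Yp3 could be tested and it did not pass, except without stage 15 embryo C (log2 change -0.91, adjusted p 0.0389), and their summed level was 3.73 to 10.9 CPM at stage 13 (median 6.27) and 1.5 to 10.8 CPM at stage 15 (median 4.57). None of the 13 tested mitochondrially encoded genes passed, while 7 passed as higher without stage 15 embryo H. Of 85 ribosomal protein genes 64 passed as higher, by a median of 0.14, but 2 did so in the directional libraries alone and 76 in the non-directional libraries alone.

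Dosage compensation raises the output of the single male X chromosome. Of 8 of its genes mle, msl-1 and Clamp fell (log2 changes -0.31, -0.37 and -0.30), against 32.4% of all genes tested, and the others did not pass. The noncoding RNA gene lncRNA:roX2 had 145.2 and 145.0 CPM in stage 13 embryos D and F and 11.6 to 15.8 CPM in the other 6. At stage 15 it had 189.8 to 240.9 CPM in embryos A, C, D and I and 13.4 to 29.0 CPM in B, F, G and H. The levels thus fell into separate groups within each stage, the labels give no sex to set beside them, and the log2 change between stages was 1.19 ± 0.77 (SE; edgeR adjusted p = 0.182). Without stage 13 embryo F it was 2.0 with an adjusted p of 0.0201, and mle did not pass in the directional libraries alone, at an adjusted p of 0.202.

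Most genes that rose more than 2-fold were at their highest at stage 15 of the 8 stages, and by their choice none could be highest at stage 13. The same choice favours stage 15 as the peak, so that the share highest at stage 15 is a description only. Of the 946, 785 (83.0%) had their highest stage mean at stage 15, against 27.5% of all genes tested, 94 at stage 4 and 49 at stage 5, and 343 had stayed under 1 CPM in the mean of every stage from 4 to 12. Of the 198 that fell, 32 were highest in the mean of stage 4 (16.2%, against 20.7% of all genes tested). A further 37 were highest at stage 10 (18.7% against 6.28%), 39 at stage 12 (19.7% against 7.02%) and 31 at stage 13 (15.7% against 6.96%). By their choice none could be highest at stage 15, which raises the shares of the other stages, so that these too are a description only. Protein-coding genes that rose more than 2-fold spanned a median of 5661 bases in the genome, those that fell 2579 and all those tested 3119. On the small chromosome 4, 16 of 85 tested genes (18.8%) rose more than 2-fold, against 9.31% on the X and 9.97% to 11.5% on the arms of chromosomes 2 and 3.

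Some neighbours changed together, and the runs named here were picked after their values were seen. On arm 3R, bases 6198811 to 6282495, the 5 neighbouring tested genes Osi24, Osi2, Osi6, Osi7 and Osi12 all rose more than 2-fold. The longest run, 8 tested neighbours at 24361847 to 24491147 on the same arm, held nAChRalpha1 and nAChRalpha2 and 6 numbered genes, 4 of which (CG13614, CG13616, CG17780 and CG17781) were among the genes low in stage 15 embryo C. On arm 3L, at 14943730 to 14976040, the run fell, with log2 changes of -3.09 to -1.49, and held BobA, Tom, Brd and Ocho of the Bearded family, which act on Notch signalling, with CG13465.

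Embryos of 1 stage also differed in the levels of these lists. In stage 15 the summed Osiris level was 399.7 CPM in embryo D and 2655.5 and 3670.4 CPM in embryos F and G, and the contractile muscle sum was 6489.4 CPM in D and 13675.8 and 14287.4 CPM in F and G. The mitosis sum ran the other way, 1304.0 CPM in D and 669.8 and 791.3 CPM in F and G. In stage 13 embryo A held the highest muscle and Osiris sums and the lowest mitosis sum, 1870.2 CPM. F and G of stage 15 and A of stage 13 are non-directional libraries, and the part of library type in this order was not tested. These orders describe the embryos within a stage and bear no test.

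**Figure D4:**
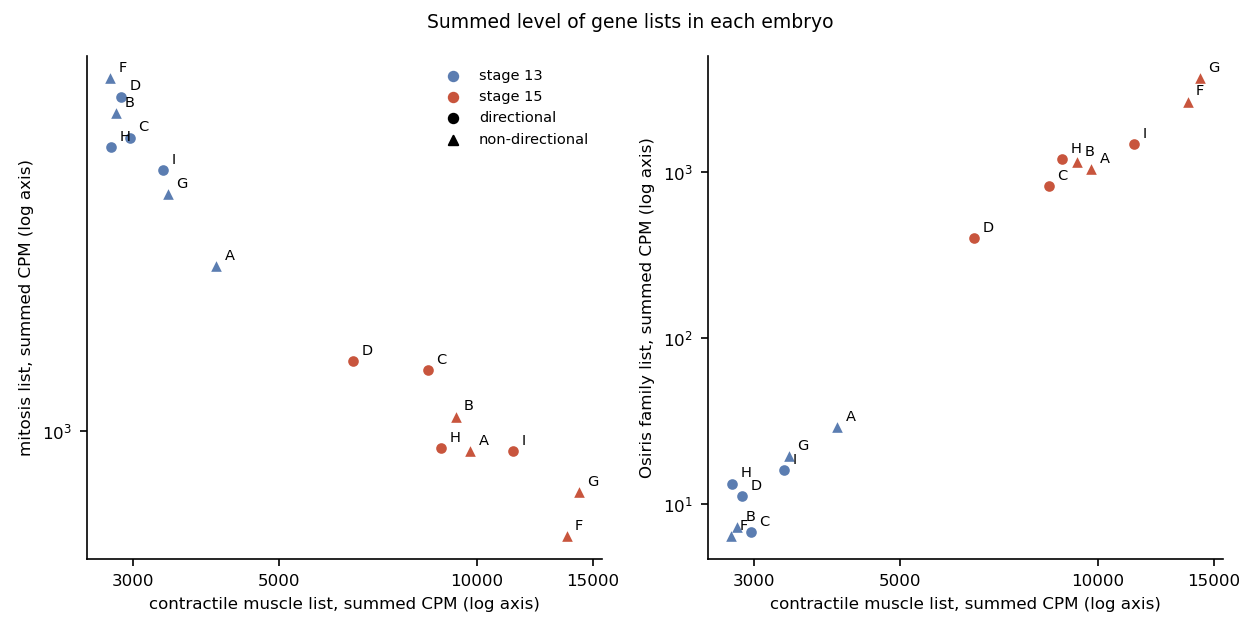
Summed CPM of gene lists in each of the 16 embryos (log axes, labelled by letter; circles directional, triangles non-directional libraries), with the contractile muscle list on the horizontal axes and the mitosis list (left) and the Osiris list (right) on the vertical axes. Embryos of stage 13 (blue) and stage 15 (red) form separate groups, with stage 13 A and stage 15 D nearest to each other.

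The library types were compared by a test of the difference between them. No gene passed an adjusted p of 0.05 in the edgeR test of the stage by library type interaction, whose smallest adjusted p was 0.697, and 416 genes (4.72%) had an unadjusted p under 0.05. The 3 genes with the smallest p in that test were lncRNA:CR34335, CG15362 and Gga. Of the 1144 genes that changed more than 2-fold, 1133 were tested in both library types alone and kept their sign in both, and 1127 passed at an adjusted p under 0.05 in both. Smaller changes named above did not all pass in each type alone. Antp, Csp, Eip93F, LanB1, TwdlZ, aub, cas, drm, eag, fkh, gt, mle, nAChRbeta2, pb, robo1, srp and tin did not pass in the directional libraries, and Cht6, Csp, Gga, Hk, Twdlalpha, e, mew, pb, robo1 and skl did not in the non-directional libraries.

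**Figure D5:**
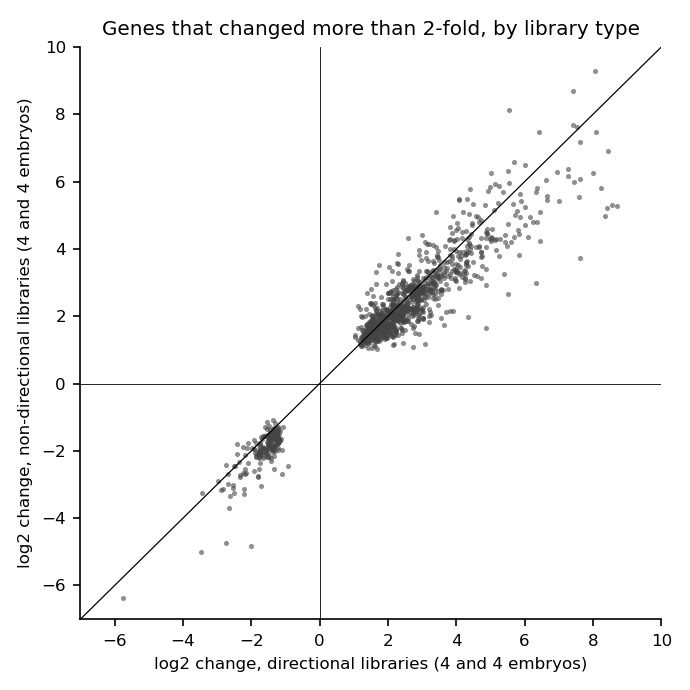
Log2 change from stage 13 to stage 15 in the 4 and 4 directional embryos (horizontal) and in the 4 and 4 non-directional embryos (vertical), for the 1133 genes that changed more than 2-fold and were tested in both; the line marks equal change. All points lie either above 0 on both axes or below 0 on both, which the choice of genes from these same embryos largely sets.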

How the data were processed

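Single whole embryos were sequenced as rRNA-depleted, paired-end RNA-seq libraries, 8 of stage 13 and 8 of stage 15 of 54 in all. The authors deposited raw read counts per gene, with a column that ignores strand and a column for each strand, per the file headers. STAR 2.5.3a and the dm6 genome build are named in the submitters' processing notes. The column that ignores strand was used for every embryo, because 8 of the 16 libraries are non-directional; genes that overlap on opposite strands therefore lose or gain reads, and the share of directional reads on a gene's own strand is given where it was low. The 4 summary entries for reads in no gene were left out, and reads in genes made up 15.45% to 20.12% of the reads in all entries, summary ones included. The external RNA spike-in has no entries among the genes.

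Of 17481 genes 8812 passed edgeR's filter on low counts. They were fitted with edgeR 4.0.16 in R 4.3.3 (TMM scaling, quasi-likelihood test) with stage and library type, and the standard error is the log2 change divided by the square root of the F statistic. Calls used an adjusted p under 0.05, and a test against 2-fold gave the larger changes. The scripts were tested on simulated data. Depth was 4575463 to 9421310 reads in genes. The members, the gene lists and the rule for named genes were chosen with earlier results of these data known: genes named were members of the lists, the 15 largest named and 3 largest numbered changes each way among genes with at least 10 CPM, no overlap and a call in both library types, and the 3 smallest interaction p-values. Alternatives were DESeq2 1.42.0 (its size factors and its test), all 54 embryos in 1 fit, no filter, no library term, a replicate block, each library type alone, own-strand counts and each embryo left out. Gene symbols were found for 17343 identifiers, and coordinates come from Ensembl's annotation of the same assembly.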

Additional observations from a re-analysis of the deposited data

Results flagged for a closer look

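In each stage, the highest or lowest embryo was called far from the others by its gap to the nearest one. The gap had to take up more of the range of the stage than Dixon's 95% limit for 8 samples allows. For normally spread values chance passes that limit in about 1 in 20 groups, a rate that need not hold for CPM of genes from the same embryos. Over the 570 groups of 8 embryos of the genes named, 61 values lay beyond the limit. Groups with few reads in every embryo are among the 570 but could not be called. The cause was not tested for any of them.

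Stage 13 embryo A, the one nearest to stage 15 on the first principal component, was the highest of its stage in 40 of them, and each of these genes rose or had no test. The level there, with that of the next embryo in brackets, was 8.27 CPM for CG6118 (2.88), 339.6 CPM for Cht10 (217.3), 62.6 CPM for Cht5 (33.2), 20.8 CPM for Cpr11A (8.15) and 42.3 CPM for Cyp18a1 (14.7). The same embryo had 12 CPM for Cyp301a1 (4.95), 62.6 CPM for Eip78C (35.3), 228.8 CPM for Eno (162.3), 1.62 CPM for Esyt2 (0.328) and 7.63 CPM for Gapdh2 (3.67). In it stood 39.3 CPM for Gasp (15.5), 31.3 CPM for Gga (17.7), 2.27 CPM for GstO3 (0.493), 8.27 CPM for Hn (1.44) and 185.8 CPM for ImpE1 (105.4). Further levels were 100.1 CPM for ImpE2 (30.5), 33.9 CPM for ImpL1 (8.47), 8.76 CPM for LUBEL (2.56), 98.2 CPM for Ldh (52.6) and 49.2 CPM for Mhc (12.3). Embryo A also had 14.6 CPM for Mlc1 (4.47), 4.06 CPM for Mp20 (0.166), 4.54 CPM for Osi12 (2.11), 8.11 CPM for Sh (3.99) and 4.06 CPM for Syn (1.92). Its levels included 4.87 CPM for Syt1 (2.32), 38.9 CPM for Tm2 (20.6), 5.68 CPM for Tpi (2.56), 752.3 CPM for bark (418.3) and 2.11 CPM for dimm (0.845). They also included 25.1 CPM for ect (8.31), 4.54 CPM for gce (2.24), 16.5 CPM for m (10.5), 60.0 CPM for mey (36.6) and 11 CPM for nAChRalpha3 (0.208). Last came 10.9 CPM for nompA (2.4), 2.11 CPM for phtm (0.985), 189 CPM for sha (72.2), 168.1 CPM for trol (97.9) and 24.2 CPM for wupA (8.79).

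In other embryos single genes lay apart, again with the level of the nearest embryo in brackets. Stage 13 embryo B was the highest of its stage for tld at 73.6 CPM (47.1). Stage 13 embryo C was the highest of its stage for prc at 4.81 CPM (2.76). Stage 13 embryo D was the highest of its stage for Doc2 at 42.5 CPM (29.9), Mef2 at 609.6 CPM (510.7), Vrp1 at 262.3 CPM (207.2) and srp at 138.7 CPM (121.9). Stage 13 embryo F was the highest of its stage for repo at 89.2 CPM (70.7) and tll at 47.8 CPM (25.8). Stage 13 embryo F was the lowest of its stage for rst at 388.3 CPM (459.2). Stage 13 embryo G was the highest of its stage for Hand at 12.6 CPM (8.76). Stage 15 embryo C was the highest of its stage for Yp3 at 7.59 CPM (3.23). Stage 15 embryo C was the lowest of its stage for drm at 162.2 CPM (233.7). Stage 15 embryo D was the lowest of its stage for EcR at 157.1 CPM (222.3). Stage 15 embryo G was the highest of its stage for kkv at 364.5 CPM (270.7). Stage 15 embryo I was the highest of its stage for Apoltp at 2100.8 CPM (1188.2), Eip74EF at 21.6 CPM (10.2), Eip93F at 16 CPM (5.09), Inos at 18.6 CPM (9.44) and MFS12 at 6.51 CPM (2.31). Stage 15 embryo I was the highest of its stage for fkh at 254.2 CPM (200.6) and srp at 123.7 CPM (102).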

How the results depend on the processing

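The counts of genes that rose and fell moved by less than 1.5 times under each alternative, with 1 exception. In the directional libraries alone, with 4 embryos a stage, falls beyond 2-fold numbered 124 against 198 with all embryos. No gene called both with all embryos and under an alternative changed direction, and the genes called in both numbered 5377 without the 3 embryos low in end genes, an alternative chosen after seeing the data. That fit called 2785 rises and 2761 falls, of which 890 and 164 were beyond 2-fold. Leaving out 1 embryo at a time gave 2863 to 3025 rises, 2751 to 2965 falls, 908 to 1079 rises beyond 2-fold and 174 to 253 falls beyond 2-fold, the last from 174 without stage 13 embryo F to 253 without stage 13 embryo A. With the letter as a replicate block the counts were 2894 and 2711, and 952 and 198 beyond 2-fold. The correlation of same-letter deviations ran from -0.219 to 0.15. For B, D and G it exceeded the highest one with another letter of the same library type. The values were 0.15 against 0.015, 0.112 against 0.065 and 0.101 against 0.057. For A, C, F, H and I it lay below that highest one. So few correlations cannot decide whether a letter marks a shared day or parent, which was not tested. DESeq2 called 3000 rises and 2870 falls. In the fit of all 54 embryos Antp, Cht6, Eip93F, LanB1, apolpp, fkh, mew, pb, robo1, skl, sls, sns and ush did not pass. Without the filter on low counts 13 Osiris genes rose, 14 cuticle protein genes rose and 7 fell, and 39 genes of the dpr, DIP, beat and side families rose. Reversed values were those of lncRNA:CR34335, which stood at 0.01 with all embryos, at -0.25 in the directional libraries and at -0.26 in their own-strand counts. Low genes limit what can be said, since 8669 of 17481 genes were not tested. The cause of these shifts was not tested.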

Other observations

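Other neighbouring genes outside the lists rose together, and they were picked after their values were seen. The Nimrod genes NimB1, NimB2, NimB3 and NimB4, relatives of receptors of blood cells, lay with Vajk3 and Cyp28a5 in a run of 6 tested neighbours on arm 2L, bases 13944756 to 13979569, with log2 changes of 2.17 to 4.18. A run of 6 on arm 2R, bases 7025010 to 7051964, held tetraspanin membrane protein genes (Tsp42Ef, Tsp42Eh, Tsp42Ei, Tsp42Ej, Tsp42El and lbm) with changes of 1.4 to 3.63. On arm 3R, bases 25283620 to 25331203, 7 neighbours including CHKov1 and CHKov2, of the choline kinase-like family, changed by 1.65 to 3.65.

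Stage 13 embryo D had the highest levels of 3 heat shock genes. Hsp68 had 137.5 CPM there and at most 19.7 CPM in the other stage 13 embryos, Hsp26 had 69.2 CPM against at most 9.09 CPM, and Hsp70Bc had 5.99 CPM against at most 0.563 CPM. In stage 15 embryo F the head gene Gsc had no read, and it had at least 1.38 CPM in the other stage 15 embryos. The level of msl-2, whose protein acts in dosage compensation in males, fell into the same embryos as that of roX2. It had 133.9 and 161.4 CPM in stage 13 embryos D and F against 27.3 to 47.0 CPM in the other 6, and 91.5 to 110.7 CPM in stage 15 embryos A, C, D and I against 26.8 to 34.0 CPM in the rest.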
